A study of Homo sapiens with 6 samples.

Results

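The human mitochondrial genome carries 37 genes, and all of them were found in the deposited expression table by a gene name that starts with MT-, among 62703 genes in all. They are 13 protein genes, 2 rRNA genes and 22 tRNA genes. The libraries were made from total RNA of H9, a long-established line of human embryonic stem cells, in 2 groups of 3. The first group received a control duplex (siControl, treatment label Control). The second received a small interfering RNA against NPM1 (siNPM1, treatment label siB23, after B23, another name of the nucleolar protein nucleophosmin that NPM1 encodes). The series design calls the 3 samples of a group biological replicates, and the labels give no time after transfection, passage or batch. The series title joins NPM1 to the long noncoding RNA ESRG and to self-renewal, and the comparison described here asks how the transcripts of the mitochondrial genome differed between the groups.

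Mitochondrial DNA is a small circle that is transcribed from promoters on each strand into long polycistronic RNAs. The tRNAs lie between most of the other genes, and their excision by RNase P and by the nuclease ELAC2 releases the rRNAs and mRNAs. Most genes are read from the heavy-strand promoter. The light-strand promoter gives MT-ND6, here the only protein gene annotated on the minus strand, and 8 of the 22 tRNAs. The mRNAs encode subunits of respiratory complexes I, III, IV and V, whose other subunits come from nuclear genes, while all subunits of complex II are nuclear. Pluripotent stem cells are known for reliance on glycolysis beside a working respiratory chain.

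Some neighbouring genes share bases, so their reads cannot be wholly separated. MT-ATP8 and MT-ATP6 are read from the same mRNA in overlapping frames, as are MT-ND4L and MT-ND4. The shared stretches are shown because the levels of these pairs are compared further on, and MT-TL1 is shown because it marks the border between the rRNAs and the mRNAs, where the pattern across the libraries turned. All are from the plus strand of chromosome M in GRCh38 (GENCODE release 29 transcripts). The 46 bases common to MT-ATP8 and MT-ATP6 (chrM:8527-8572) have the first codon of MT-ATP6 and the last codon of MT-ATP8 in capitals. The end of MT-ND4L (chrM:10740-10766) has the 7 bases that also open MT-ND4 in capitals. MT-TL1, a leucine tRNA gene (chrM:3230-3304), has in capitals the 13 bases that the termination factor MTERF1 is known to bind. Any part of MTERF1 in the pattern across the libraries was not tested.
MT-ATP8 and MT-ATP6 shared bases: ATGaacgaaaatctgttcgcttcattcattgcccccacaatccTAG
end of MT-ND4L: cataacctaaacctactccaATGCTAA
MT-TL1: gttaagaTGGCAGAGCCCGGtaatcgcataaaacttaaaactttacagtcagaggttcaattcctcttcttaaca

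The values are TPM, a unit of transcript abundance that scales each gene by its length and each library to the same total, so sequencing depth is unknown and no counting error can be given. Values in threes are given in the order of replicates 1, 2 and 3 throughout. The target itself, NPM1, measured 3109, 2969 and 3132 TPM after siControl and 173, 165 and 238 TPM after siNPM1 (log2 fold change -4.01, SE 0.157, limma adjusted p = 0.000852). The pluripotency genes POU5F1 and LIN28A were abundant in every library (1375 to 2266 and 482 to 784 TPM), while DCN and LUM, which mark fibroblasts, were listed at 0 in all of them. Of 8 pluripotency genes 4 were positive and 0 passed (limma; POU5F1 and TDGF1 at -0.56 and -0.81, adjusted p = 0.212 and 0.1002), and 2 higher and 3 lower passed without siControl replicate 2, POU5F1 and TDGF1 among the lower, where 24.1% and 12.9% of all tested genes did. Only 2 of 6 fibroblast genes (COL1A2 at 26.1 to 35.9 TPM and PDGFRB at 0.67 to 3.29) and 2 of 8 early lineage genes (PAX6 at 0.85 to 7.87 and MIXL1 at 0.58 to 6.86) reached a mean of 1 TPM, and 0 passed in either fit. siControl replicate 2 stood apart from the other siControl libraries. It was the highest of the 3 for 50.8% of the 15768 genes tested, and ribosomal protein transcripts made up 17.7% of it, against 25.2% and 25.8% of the other siControl libraries and 20.3% to 22.5% of those with siNPM1. The main counts and the shares are therefore given with and without that library. Without it, 24.1% of all tested genes passed as higher and 12.9% as lower (limma, adjusted p under 0.05), which is the background for every count of genes in that setting.

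Mitochondrial transcripts made up a large and uneven part of these libraries. Together the MT- genes held 10.96%, 23.3% and 11.1% of the siControl libraries, and 18.6%, 21.6% and 21.3% of the siNPM1 libraries. siControl replicate 2 thus lay above every siNPM1 library and the other siControl libraries below every one, so the groups overlapped. The means were 15.1% ± 7.09 and 20.5% ± 1.62 (SD, n = 3 each; two-sided exact permutation test, p = 0.4, where 3 against 3 cannot go below 0.1). Without siControl replicate 2 the siNPM1 mean was 9.46 percentage points higher than the siControl mean, and against that replicate alone it was 2.82 percentage points lower, a difference of -2.82. In bulk RNA, fewer cells with these transcripts and less of them per cell cannot be told apart, nor can more mitochondrial RNA and less nuclear RNA in a share of the total.

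The protein and rRNA classes did not move in parallel. Protein transcripts held 8.86%, 22.3% and 8.82% of the siControl libraries and 17.0%, 19.8% and 19.3% of the siNPM1 libraries. The difference of the means, 5.37 percentage points, was 9.84 without siControl replicate 2, 3.15 without replicate 1 and 3.13 without replicate 3. With each gene weighted by its length it was 1.59, in percent of a different total, so its size cannot be compared with the others. The rRNAs held 2.09%, 1.08% and 2.31% in siControl and 1.67%, 1.83% and 1.97% in siNPM1. siControl replicate 2 was the highest library for the first class and the lowest for the second. As a share of the mitochondrial total, the rRNAs made up 19.1%, 4.64% and 20.8% in siControl and 8.95%, 8.46% and 9.28% in siNPM1 (14.8% ± 8.88 and 8.90% ± 0.410, SD, n = 3 each; exact permutation test, p = 0.4). The difference of -5.95 percentage points was -11.05 without siControl replicate 2, -3.81 without replicate 1 and -2.98 without replicate 3. The siNPM1 libraries agreed closely with each other, and all of them lay inside the range that the siControl libraries spanned.

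**Figure D1:**
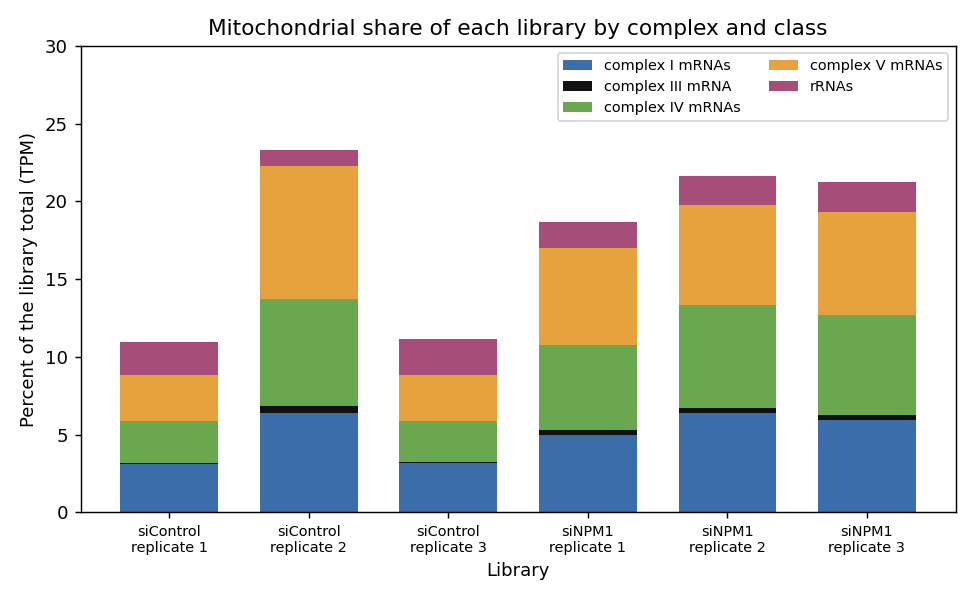
Share of each library's TPM total taken by mitochondrial transcripts, in percent, stacked by respiratory complex for the mRNAs and with the rRNAs on top, for the 6 libraries. The whole bars reach 10.96% and 11.1% in siControl replicates 1 and 3, 23.3% in siControl replicate 2 and 18.6% to 21.6% in siNPM1, while the rRNA part is smallest, at 1.08%, in siControl replicate 2.

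All 22 tRNA genes were listed at 0 in every library, so they gave no difference between the groups and no share. They are 59 to 75 bases long. The table listed none of its 1630 genes with an annotated length of up to 80 bases above 0 in any library, nuclear genes included, and 0.261% of the 4975 genes of 81 to 150 bases. A value of 0 here therefore stands for a size class as a whole, and the level of mature tRNA was not measured. The light strand is thus represented by MT-ND6 alone.

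The rRNA genes MT-RNR1 and MT-RNR2 encode the RNAs of the small and the large subunit of the mitochondrial ribosome. MT-RNR1 (chromosome M, 648 to 1601) measured 3273, 2103 and 4193 TPM across the siControl libraries and 2172, 2271 and 2449 TPM across those with siNPM1. MT-RNR2 (1671 to 3229) measured 17668, 8716 and 18952 TPM across the siControl libraries and 14525, 16007 and 17289 TPM across those with siNPM1. For each of them siControl replicate 2 was the lowest of all libraries and siControl replicates 1 and 3 were the highest, so the groups overlapped. The fitted log2 fold change (siNPM1 minus siControl, from log2(TPM + 1)) was -0.42 with a standard error of 0.248 for MT-RNR1 and 0.15 with a standard error of 0.308 for MT-RNR2. Neither passed (limma, adjusted p = 0.358 and 0.782).

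The ratio between the rRNAs separated the groups, as their levels did not. The ratio of MT-RNR2 to MT-RNR1 was 5.40, 4.14 and 4.52 in siControl and 6.69, 7.05 and 7.06 in siNPM1. The groups did not overlap, and siControl replicate 2 had the lowest ratio of all (4.69 ± 0.644 and 6.93 ± 0.212, SD, n = 3 each; exact permutation test, p = 0.1, the smallest possible, and 0.45 after Benjamini-Hochberg adjustment over the 36 shares and ratios tested). Without overlap, leaving out libraries could not change the direction. The siNPM1 mean was higher by 1.97 to 2.60 whichever library was left out, and by 2.79 against siControl replicate 2 alone. The labels name an RNA enrichment step without its method, and its part in the rRNA values was not tested.

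Complex I, the NADH dehydrogenase that feeds electrons into the chain, has 7 of its subunits encoded here. MT-ND1 (3307 to 4262) measured 1703, 5589 and 1835 TPM across the siControl libraries and 3750, 5574 and 5170 TPM across those with siNPM1. MT-ND2 (4470 to 5511) measured 1526, 6488 and 1525 TPM across the siControl libraries and 3859, 6107 and 5807 TPM across those with siNPM1. In both, siControl replicate 2 was the highest library and the other siControl libraries the lowest. MT-ND3 (10059 to 10404) measured 8448, 16607 and 8752 TPM across the siControl libraries and 12206, 16271 and 14324 TPM across those with siNPM1.

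MT-ND4L and MT-ND4 had the narrowest range among the siControl libraries. MT-ND4L (10470 to 10766) measured 12071, 20917 and 12188 TPM across the siControl libraries and 17444, 21263 and 20101 TPM across those with siNPM1. MT-ND4 (10760 to 12137) measured 5166, 7242 and 5362 TPM across the siControl libraries and 6426, 7488 and 7103 TPM across those with siNPM1. The highest siControl library exceeded the lowest by 1.40-fold for MT-ND4 and 1.73-fold for MT-ND4L, the smallest such ratios of the 13 protein genes.

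MT-ND5 and MT-ND6 meet end to end on opposite strands and had nearly the same levels. MT-ND5 (12337 to 14148, plus strand) measured 1017, 3247 and 894 TPM across the siControl libraries and 3008, 3350 and 3383 TPM across those with siNPM1. MT-ND6 (14149 to 14673, minus strand) measured 1038, 3553 and 920 TPM across the siControl libraries and 3367, 3564 and 3756 TPM across those with siNPM1. For each, siControl replicate 2 fell within the siNPM1 range and the other siControl libraries lay well below it. The ratio of MT-ND6 to MT-ND5 lay between 1.02 and 1.12 in all 6 libraries. The strand setting of the counting is not given in the sources used here, and without strand the reads of either gene cannot be told apart from RNA of the opposite strand that runs across it.

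Complex III, the cytochrome bc1 complex, has a single mitochondrial subunit, cytochrome b. Its gene MT-CYB (14747 to 15887) measured 693, 4742 and 724 TPM across the siControl libraries and 2592, 3187 and 2772 TPM across those with siNPM1. siControl replicate 2 exceeded the lowest siControl library by 6.84-fold, the widest range of any mitochondrial gene with values, and the siNPM1 libraries lay in between.

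Complex IV, cytochrome c oxidase, which passes electrons to oxygen, has its catalytic core encoded here. MT-CO1 (5904 to 7445) measured 10181, 19184 and 9593 TPM across the siControl libraries and 19384, 23891 and 24058 TPM across those with siNPM1. It was the only one of the 15 genes with values whose groups did not overlap, and by a small margin, since siControl replicate 2 came within 200 TPM of siNPM1 replicate 1. No gene stood lower without overlap. Over all tested genes, 16.2% did not overlap with siNPM1 higher and 8.55% with siNPM1 lower. MT-CO2 (7586 to 8269) measured 8938, 22979 and 8625 TPM across the siControl libraries and 17290, 20114 and 19365 TPM across those with siNPM1. MT-CO3 (9207 to 9990) measured 8161, 26804 and 8467 TPM across the siControl libraries and 18172, 22617 and 21339 TPM across those with siNPM1. For MT-CO2 and MT-CO3, siControl replicate 2 was the highest of the 6 libraries.

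Complex V, ATP synthase, has a pair of membrane subunits encoded here. MT-ATP8 (8366 to 8572) measured 24891, 73586 and 23964 TPM across the siControl libraries and 53801, 55248 and 56718 TPM across those with siNPM1. MT-ATP6 (8527 to 9207) measured 4787, 11575 and 5400 TPM across the siControl libraries and 8486, 9071 and 9170 TPM across those with siNPM1. siControl replicate 2 was again the highest of all libraries for each. MT-ATP8 was listed 4.44 to 6.36 times as high as MT-ATP6 and MT-ND4L 2.27 to 2.89 times as high as MT-ND4, although each pair shares an mRNA. The higher member is the shorter one in each pair (207 against 681 bases, and 297 against 1378), and how the authors' counting sets the length of short genes is not given in the sources used here.

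**Figure D2:**
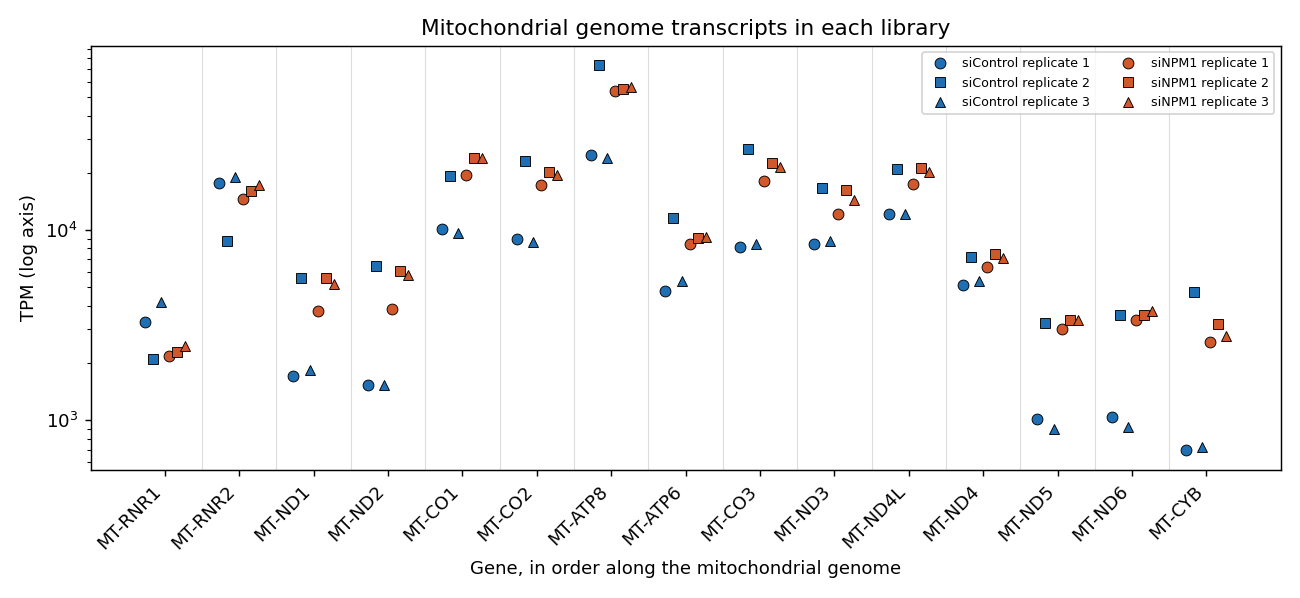
TPM on a log axis for the 13 mitochondrial protein genes and 2 rRNA genes, in order along the mitochondrial genome, with a point for each of the 6 libraries. The squares of siControl replicate 2 sit with or above the siNPM1 points for each mRNA and below them for each rRNA, except MT-CO1, where siControl replicate 2 at 19184 TPM is just under the lowest siNPM1 library at 19384 TPM.

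All 13 protein genes had a positive log2 fold change with all 6 libraries, and none passed the threshold of an adjusted p under 0.05. The median was 0.75, beside 0.10 over all tested genes. The largest values were 1.24 (standard error 0.489) for MT-ND6, 1.18 (0.466) for MT-ND5, 1.09 (0.711) for MT-CYB and 1.06 (0.568) for MT-ND2. MT-CO1 had 0.86 with a standard error of 0.289 and the lowest adjusted p of the 15 genes, 0.229 (limma), and MT-ND4 had the smallest value, 0.26. Of these genes 0 were called, where 0.0254% of the 15768 tested genes passed, and 3 were higher at an unadjusted p under 0.05 (MT-CO1, MT-ND5 and MT-ND6), where 13.2% of all tested genes were; 0 were lower, where 6.45% of all were. Centring each library on its median moved the median of all genes from 0.10 to -0.02 and left every protein gene positive, at 0.13 to 1.12.

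The call depended on siControl replicate 2. Without it, all 13 protein genes passed as higher and MT-RNR1 as lower (limma, adjusted p from 0.00130 to 0.0172 for these 14), while MT-RNR2 did not (log2 fold change -0.20, adjusted p = 0.146). In that fit 24.1% of all tested genes passed as higher and 12.9% as lower. With array weights, which let a deviating library count less, the same numbers of MT- genes passed, 13 higher and 1 lower. So did 60.2% of all tested genes, 36.6% as higher and 23.6% as lower. Without siControl replicate 2 the protein median was 1.18, beside 0.14 over all genes, with MT-CYB at 2.00, MT-ND6 at 1.86, MT-ND5 and MT-ND2 at 1.76, MT-ND1 at 1.43 and MT-ND4 at 0.41, and MT-RNR1 fell by 0.69 on the log2 scale. Against siControl replicate 2 alone, 11 protein genes were negative, 2 were positive and 0 passed (adjusted p from 0.420 to 0.999, limma, with the spread taken from the siNPM1 libraries), where 0.171% of all tested genes passed. There the median was -0.23, MT-CYB was at -0.74, MT-ND5 and MT-ND6 were at -0.0023 and 0.0022, MT-CO1 was at 0.22 and MT-RNR2 at 0.87. Genes with lower TPM tended to have larger changes among the 13 (Spearman's rho of -0.54 between the 6-library log2 fold change and log2 mean TPM, a description across genes that share the same libraries), while rho with gene length was 0.35, with GC content 0.22 and with position along the genome 0.14.

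**Figure D3:**
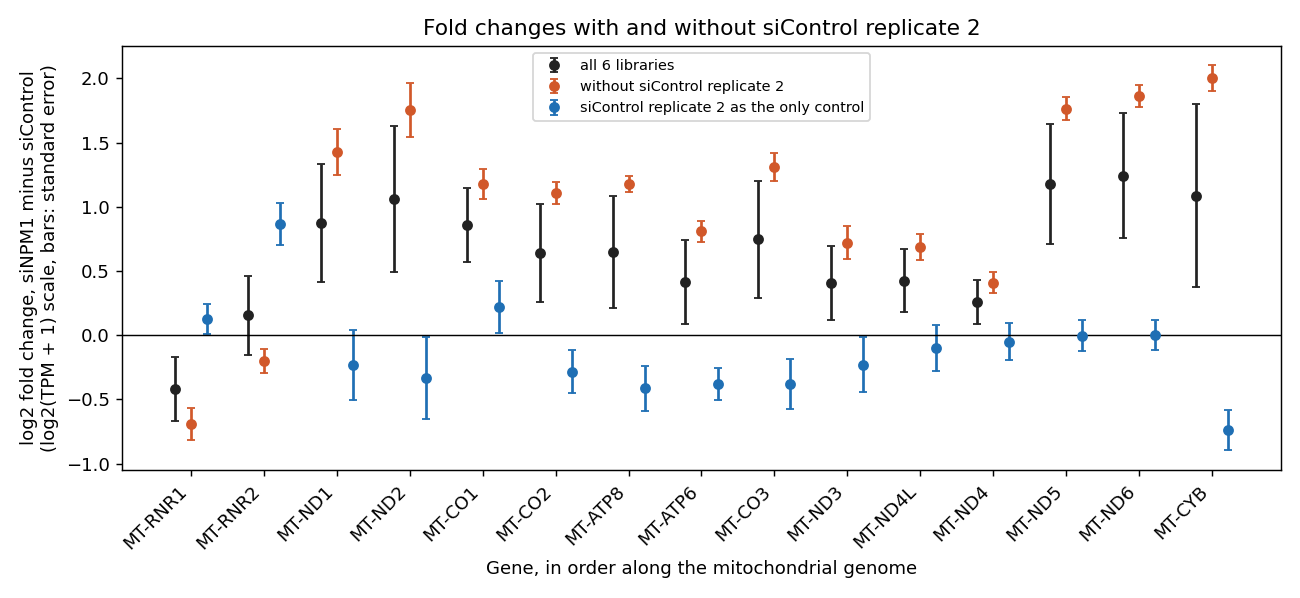
Log2 fold change (siNPM1 minus siControl, from log2(TPM + 1)) for each mitochondrial gene with values, in genome order, from 3 fits: all 6 libraries, without siControl replicate 2, and with siControl replicate 2 as the only control. Bars are standard errors. The protein genes are positive in the first fit and larger in the second, and 11 of 13 are negative in the third, while MT-RNR1 and MT-RNR2 are negative in the second fit and positive in the third.

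Shares within the mitochondrial mRNAs, from which the library total cancels, separated the groups for a few genes. Of the 13 protein genes, 2 had a share that was higher in siNPM1 without overlap and 1 a share that was lower. By level, 16.2% of all tested genes did not overlap with siNPM1 higher and 8.55% with siNPM1 lower. No such background was computed for shares or ratios, so whether these counts exceed it was not tested. MT-ND6 held 1.17%, 1.60% and 1.04% of the protein total in siControl and 1.98%, 1.80% and 1.95% in siNPM1. MT-ND5 held 1.15%, 1.46% and 1.01% in siControl and 1.77%, 1.69% and 1.75% in siNPM1. Every siNPM1 library exceeded every siControl library, replicate 2 included, for both genes. The means were 1.27% ± 0.290 and 1.91% ± 0.0953 for MT-ND6, and 1.21% ± 0.229 and 1.74% ± 0.0403 for MT-ND5 (SD, n = 3 each; exact permutation test, p = 0.1 for each, the smallest possible; 0.45 adjusted over 36). Without siControl replicate 2 the differences were 0.803 and 0.659 percentage points, beside 0.640 and 0.533 with it. Relative to the median of the heavy-strand protein genes, MT-ND6 was 0.84 and MT-ND5 0.77 higher on the log2 scale in siNPM1, again with no overlap. MT-CO1 was the only other protein gene to separate the groups on that scale, 0.45 higher. The ratio of MT-ND5 to MT-ND4 did not separate them. It was 0.197, 0.448 and 0.167 in siControl and 0.468, 0.447 and 0.476 in siNPM1 (exact permutation test, p = 0.2). MT-ND6 is the only light-strand gene with values and so makes up the light-strand share of the mitochondrial total. That share was 0.947%, 1.52% and 0.826% in siControl and 1.81%, 1.65% and 1.76% in siNPM1 (exact permutation test, p = 0.1, the smallest possible, and 0.45 adjusted over 36).

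MT-ATP6 was the only protein gene whose share was lower in every siNPM1 library. It held 5.40%, 5.20% and 6.12% in siControl and 5.00%, 4.59% and 4.75% in siNPM1 (exact permutation test, p = 0.1, the smallest possible, and 0.45 adjusted over 36). Its share differed by -0.796 percentage points, and by -0.982 without siControl replicate 2. Relative to the heavy-strand median its groups overlapped, with a difference of 0.0064 on the log2 scale. MT-ATP6 is itself a middle gene that sets this median in every library but siControl replicate 1. That scale therefore cannot decide its order. Complex IV mRNAs together held 30.8%, 31.0% and 30.2% of the protein total in siControl and 32.3%, 33.7% and 33.5% in siNPM1, without overlap. The means were 30.7% ± 0.390 and 33.2% ± 0.762 (SD, n = 3 each, exact permutation test, p = 0.1, the smallest possible, and 0.45 adjusted over 36). Complex IV differed by 2.51 percentage points, and by 2.67 without siControl replicate 2. None of its 3 genes separated the groups by share on its own, and with the complexes weighed by the mean of their genes the groups overlapped (exact permutation test, p = 0.2). MT-CO1 came nearest, at 11.5%, 8.62% and 10.9% in siControl and 11.4%, 12.1% and 12.5% in siNPM1. Complex I mRNAs held 28.6% to 35.7% in siControl and 29.5% to 32.2% in siNPM1, MT-CYB 0.782% to 2.13% and 1.44% to 1.61%, and complex V mRNAs 33.3% to 38.3% and 32.5% to 36.7%, all with overlap. Most of complex V was MT-ATP8, at 27.15% to 33.07% in siControl and 27.94% to 31.69% in siNPM1. Leaving out MT-ATP8 and MT-ND4L was chosen after seeing the data. Complex V was then MT-ATP6 alone, so its difference restates the lower MT-ATP6 share on a smaller total. That difference was -1.56 percentage points (exact permutation test, p = 0.1). With MT-ATP8 and MT-ND4L kept, the complex V difference was -0.5655 percentage points (exact permutation test, p = 0.7).

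The shares of MT-ND4 and MT-ND4L varied mainly among the siControl libraries. That of MT-ND1 varied about as much in siNPM1 (SD 0.3195) as in siControl (SD 0.3056). MT-ND4 held 5.83%, 3.25% and 6.08% of the protein total in siControl and 3.68% to 3.79% in siNPM1. MT-ND4L held 13.6%, 9.40% and 13.8% in siControl and 10.3% to 10.8% in siNPM1. Between the siNPM1 libraries, replicate 1 had less MT-ND2 (2.27% against 3.09% and 3.01%) and less MT-ND1 (2.21% against 2.82% and 2.68%) than replicates 2 and 3. MT-CO2 was the steadiest, at 9.77% to 10.3% over all 6 libraries.

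**Figure D4:**
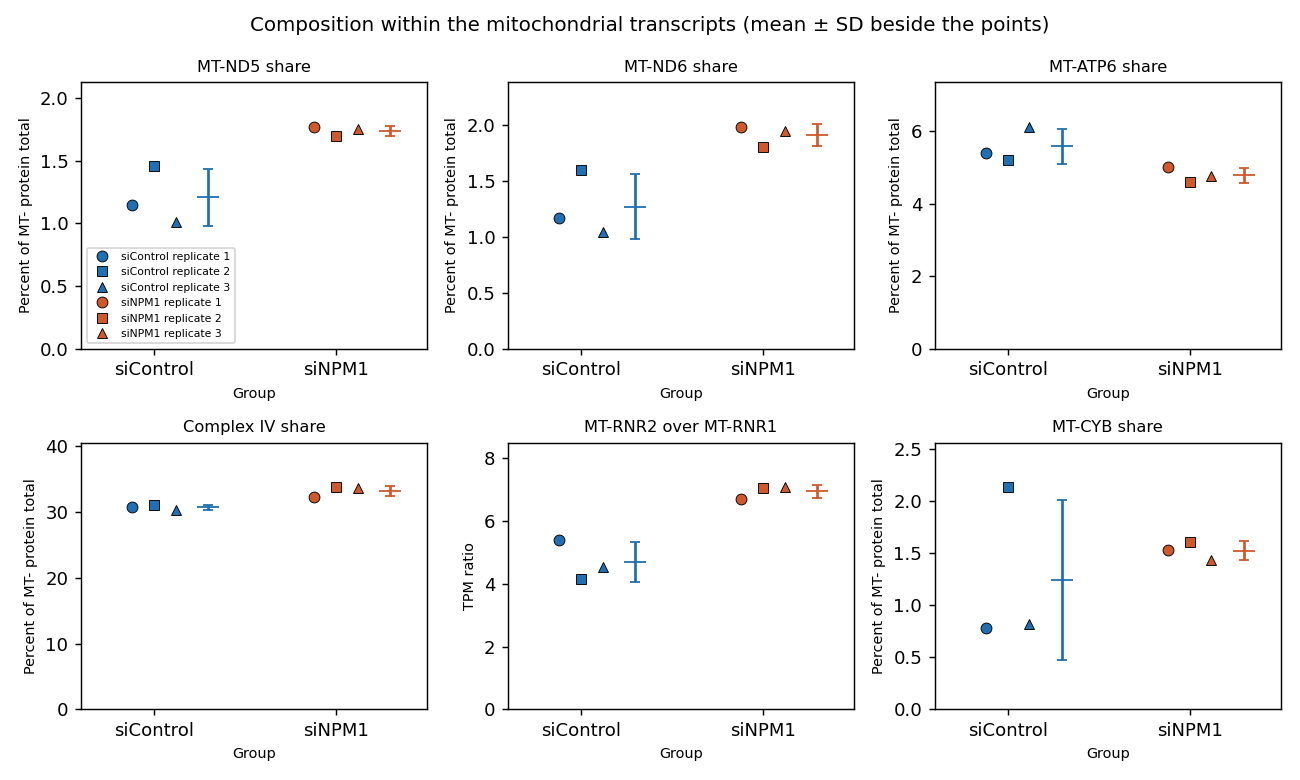
Shares of the mitochondrial protein total for MT-ND5, MT-ND6, MT-ATP6, complex IV and, in the last panel, MT-CYB, in percent, and the TPM ratio of MT-RNR2 to MT-RNR1, by group. Points are libraries, and the bars beside them are mean ± SD of 3. The groups do not overlap in the other panels, while in the panel of MT-CYB the siControl points at 0.782% to 2.13% enclose the siNPM1 points at 1.44% to 1.61%.

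Copies of mitochondrial DNA in the nuclear genome could take part of these reads. The table held 402 genes named as pseudogenes of mitochondrial protein or rRNA genes, or as MT-RNR2-like genes. Of these, 4 had a mean of at least 10 TPM. MTATP6P1 (chromosome 1, 633696 to 634376) differs from MT-ATP6 by 10 of 681 bases. It was listed at 252, 685 and 293 TPM across the siControl libraries and 485, 449 and 487 TPM across those with siNPM1, which is 5.27%, 5.92%, 5.43%, 5.71%, 4.95% and 5.31% of the MT-ATP6 value in the same libraries. Its level thus followed MT-ATP6 at a nearly fixed ratio, and its reads cannot be assigned with certainty. The others, MTCO1P12, MTND1P23 and MTND6P3, stood at 0.242% to 0.444% of their parent genes.

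Nuclear genes that transcribe and maintain mitochondrial DNA had mostly positive values, and siControl replicate 2 again sided with the siNPM1 libraries for many of them. Of 19 such genes 17 were positive with all 6 libraries and 0 passed (limma; median log2 fold change 0.41, beside 0.10 over all genes). Without siControl replicate 2, 13 passed as higher and 0 as lower, where 24.1% and 12.9% of all genes did, with a median of 0.69 beside 0.14, and against it alone the median was -0.02 and 0 passed. TEFM, the elongation factor of mitochondrial transcription, measured 8.65, 19.8 and 8.47 TPM across the siControl libraries and 21.2, 26.6 and 23.2 TPM across those with siNPM1, without overlap (log2 fold change 0.99, adjusted p = 0.223; 1.36, adjusted p = 0.00248 without siControl replicate 2, limma). MTERF1, which binds the sequence in MT-TL1 shown above, measured 2.69, 11.4 and 2.15 TPM across the siControl libraries and 10.7, 10.2 and 7.49 TPM across those with siNPM1, so that siControl replicate 2 was the highest library (log2 fold change 0.98, adjusted p = 0.314; 1.60, adjusted p = 0.00424 without siControl replicate 2, limma). TWNK, the replicative helicase, measured 9.62, 20.7 and 9.01 TPM across the siControl libraries and 23.2, 22.4 and 23.1 TPM across those with siNPM1, without overlap (log2 fold change 0.85, adjusted p = 0.235; 1.21, adjusted p = 0.00190 without siControl replicate 2, limma).

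The core genes of the transcription machinery had small fitted values with all 6 libraries. POLRMT, the mitochondrial RNA polymerase, measured 23.2, 28.9 and 28.9 TPM across the siControl libraries and 22.98, 33.73 and 26.52 TPM across those with siNPM1 (log2 fold change 0.03, adjusted p = 0.939). TFAM, which packages the DNA and binds its promoters, measured 26.1, 52.8 and 27.1 TPM across the siControl libraries and 30.5, 35.6 and 36.0 TPM across those with siNPM1 (0.02, adjusted p = 0.971). For TFAM, siControl replicate 2 was thus the highest library and the other siControl libraries the lowest, as for MTERF1. For TFB2M, the promoter-melting factor, the fit gave 0.07 (adjusted p = 0.772; all limma). None of these 3 passed without siControl replicate 2 either, where TFAM came closest (log2 fold change 0.34, adjusted p = 0.0544 in limma).

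Of 32 genes that cleave or modify mitochondrial RNA, 24 were positive, 0 passed with all 6 libraries, and 16 higher and 2 lower passed without siControl replicate 2, where 24.1% and 12.9% of all genes did (limma; medians 0.33 and 0.48). ELAC2, the nuclease that cuts behind the tRNAs, measured 47.3, 57.5 and 44.6 TPM across the siControl libraries and 50.7, 59.1 and 63.96 TPM across those with siNPM1, with overlap. QTRT1, a tRNA modification enzyme, and MRM1, an rRNA methyltransferase, had the smallest p of the list (log2 fold changes 0.71 and 0.76, adjusted p = 0.212 and 0.216 in limma), and both passed without siControl replicate 2 (0.90 and 0.95). Of 19 genes of mitochondrial RNA stability and decay, 18 were positive, 0 passed, and 10 higher passed without siControl replicate 2, against the same 24.1% (medians 0.38 and 0.45). LRPPRC and SLIRP, the partner proteins that stabilise mitochondrial mRNAs, were at 139 to 152 and 443 to 712 TPM in siControl and at 149 to 166 and 438 to 682 TPM in siNPM1. MTPAP, the mitochondrial poly(A) polymerase, was at 11.2 to 13.1 and 11.5 to 13.4 TPM. These 3 did not pass in either fit, and FASTK and PTCD2 had the smallest p of the list (log2 fold changes 1.04 and 0.76, adjusted p = 0.199 and 0.230 in limma) and passed without siControl replicate 2 (1.28 and 1.03).

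The genes that charge mitochondrial tRNAs and translate mitochondrial mRNAs were more mixed. Of 22 charging genes 13 were positive and 0 passed, and 6 higher and 2 lower passed without siControl replicate 2, shares near the 24.1% and 12.9% of all genes (limma; medians 0.07 and 0.10). PARS2, the mitochondrial prolyl-tRNA synthetase, measured 1.67, 5.25 and 1.27 TPM across the siControl libraries and 7.48, 6.64 and 7.14 TPM across those with siNPM1. GARS1, a glycyl-tRNA synthetase that also serves the cytosol, measured 269, 166 and 274 TPM across the siControl libraries and 150, 120 and 135 TPM across those with siNPM1. Their groups did not overlap, in opposite directions, and both passed without siControl replicate 2 (log2 fold changes 1.71 and -1.01). Of 13 translation factors 12 were positive and 0 passed, and 5 higher passed without siControl replicate 2, where 24.1% of all genes did (medians 0.33 and 0.43), with MRRF and MTFMT first by p (log2 fold changes 0.48 and 0.86, adjusted p = 0.212 and 0.240 in limma; 0.54 and 1.21 without siControl replicate 2, where both passed). Of 7 regulators of mitochondrial biogenesis 4 were positive and 0 passed, and 2 higher and 1 lower passed without siControl replicate 2, where 24.1% and 12.9% of all genes did (medians 0.12 and 0.21). The coactivator genes PPRC1 and PPARGC1B were first by p (log2 fold changes 0.66 and 0.57, adjusted p = 0.199 and 0.225 in limma), and they were the 2 that passed as higher without siControl replicate 2 (0.80 and 0.67).

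**Figure D5:**
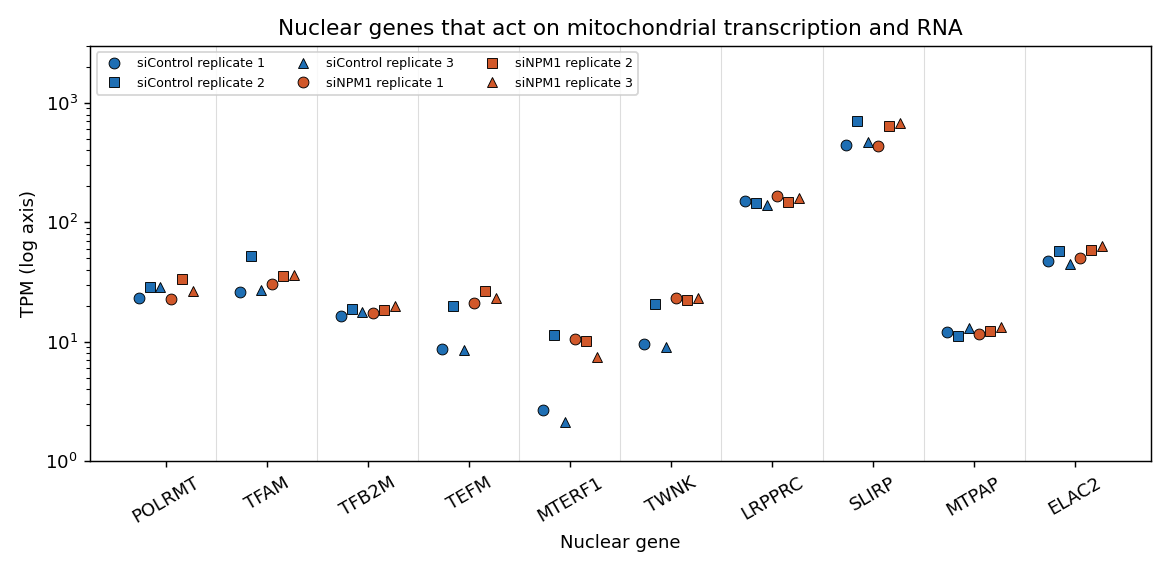
TPM on a log axis of 10 nuclear genes that act on mitochondrial DNA and RNA, with a point for each of the 6 libraries. TEFM, MTERF1 and TWNK are low in siControl replicates 1 and 3 and higher in the other 4 libraries, while POLRMT, TFB2M, LRPPRC and MTPAP lie close together in all 6.

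The nuclear partners of the mitochondrial subunits did not follow the mitochondrial mRNAs with all 6 libraries or without siControl replicate 2. With all 6 libraries, 14 of 37 nuclear genes of complex I, 1 of 9 of complex III, 1 of 11 of complex IV and 5 of 17 of complex V were positive, with medians of -0.10, -0.18, -0.19 and -0.12, and 0 passed (limma). Without siControl replicate 2 the medians were -0.12, -0.13, -0.30 and -0.16, and 8 of the 11 complex IV genes passed as lower and 0 as higher, where 12.9% and 24.1% of all genes did. Against siControl replicate 2 alone the medians of complexes I, III, IV and V were -0.05, -0.11, 0.04 and -0.08, beside -0.23 for the mitochondrial protein genes. COX8A measured 422, 341 and 421 TPM across the siControl libraries and 334, 321 and 324 TPM across those with siNPM1. NDUFB4 measured 500.5, 324 and 489 TPM across the siControl libraries and 297, 269 and 274 TPM across those with siNPM1, and NDUFB9, in the opposite direction, at 196, 245 and 208 TPM and 266, 309 and 318 TPM. UQCRB and UQCR10 of complex III stood at -0.41 and -0.28, COX7B of complex IV at -0.28, and ATP5MC2 and ATP5ME of complex V at -0.34 and -0.32 on the log2 scale with all 6 libraries. The passes without siControl replicate 2 were 7 higher and 6 lower in complex I, 1 and 3 in complex III, and 1 and 5 in complex V, where 24.1% of all genes passed as higher and 12.9% as lower; the complex I shares were near these. The genes of these complexes named here were all among the passes. The 4 genes of complex II, which has no mitochondrial subunit, had a median of -0.05, 1 was positive (SDHC, 0.20, beside SDHA at -0.31), and 1 passed as lower without siControl replicate 2.

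The genes of the stress response that mitochondrial dysfunction is known to engage mostly had values opposite to those of the mitochondrial mRNAs, except against siControl replicate 2 alone. The summed level of 20 such genes measured 5703, 4199 and 5741 TPM across the siControl libraries and 3360, 3625 and 3868 TPM across those with siNPM1. Of the 19 tested, 17 had a negative log2 fold change and 0 passed (limma, median -0.67). Without siControl replicate 2, 12 lower and 1 higher passed, where 12.9% and 24.1% of all genes did (median -0.94). Against that replicate alone the median was -0.11, beside -0.23 for the mitochondrial protein genes, and 5 of the 19 were positive. PSAT1 and PHGDH, enzymes of serine synthesis, had the smallest p of the list (log2 fold changes -0.48 and -0.76, adjusted p = 0.178 and 0.200 in limma), and both passed without siControl replicate 2 (-0.48 and -0.94). DDIT3 and ATF3, stress-induced transcription factors chosen after their values were seen, stood at 234 and 352 TPM in siControl replicate 1, at 254 and 382 in replicate 3 and at 2.56 and 13.04 in replicate 2, against 7.64 to 16.7 and 24.6 to 28.9 TPM in siNPM1. The siControl libraries with high stress genes were those with low mitochondrial mRNA, and the part of this stress in the mitochondrial result was not tested.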

How the data were processed

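The authors deposited TPM values for 62703 genes in 6 libraries and the mean of each group, and the 2 mean columns were not used. Per the submitters' processing notes the build was GRCh38. The aligner, counting tool, annotation, strand setting and enrichment method are not given in the sources used here. Libraries sum to 1000000 TPM, so depth is unknown. Columns were matched to samples by treatment and replicate number. For the 15768 genes averaging at least 1 TPM, log2(TPM + 1) was compared with limma 3.58.1 in R 4.3.3 (variance trend, two-sided, Benjamini-Hochberg adjustment over all tested genes, threshold 0.05). Of the 37 MT- genes 15 passed the filter. Shares and ratios were compared by a two-sided exact permutation test (scipy 1.17.1). Positions and lengths come from GENCODE release 29, with 92.9% of gene identifiers found. All 232 entries of the 15 nuclear gene lists were matched. The text names every MT- gene with values, 9 nuclear factors, NPM1, pseudogenes with a mean of at least 10 TPM and, per list, the 2 genes of smallest p where none passed; DCN, LUM, LIN28A, DDIT3 and ATF3 were named after their values were seen. Members and lists were chosen with earlier results of these data known. The fit was tested on simulated data. Alternatives were pseudocount, filter, scaling, variance model, array weights, replicate number, single libraries, length weighting and leaving out MT-ATP8 and MT-ND4L.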

Additional observations from a re-analysis of the deposited data

How the results depend on the processing

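The number of MT- genes past the threshold was 0 higher and 0 lower under every alternative to the fit except array weights and leaving out libraries. Array weights gave 13 higher and 1 lower, where 36.6% and 23.6% of all genes passed. With libraries left out the numbers were 0 to 13 higher and 0 to 1 lower, the highest without siControl replicate 2. The median of the protein genes was 0.56 after quantile normalization, 0.84 rescaled without MT- genes, 1.22 with array weights and 0.45 to 1.18 with a library left out, and it was -0.23 against siControl replicate 2 alone. In that last setting the log2 fold changes of MT-RNR1 (0.13), MT-ND1 (-0.23), MT-ND2 (-0.33), MT-CO2 (-0.28), MT-ATP8 (-0.41), MT-ATP6 (-0.38), MT-CO3 (-0.38), MT-ND3 (-0.23), MT-ND4L (-0.10), MT-ND4 (-0.051), MT-ND5 (-0.0023) and MT-CYB (-0.74) changed sign. So did the differences of the MT- total (-2.82 percentage points of the library), the protein share (-3.57), the rRNA share of the library (0.742) and of the MT- total (4.26), and the shares of complex I (2.25) and complex III (-0.606) in the protein total. MT-RNR2 changed sign with quantile normalization (-0.29), array weights (-0.10) and without siControl replicate 2 (-0.20, against up to 0.36 without another library). With libraries left out, the rRNA share of the library differed by -0.381 to 0.236 percentage points and the complex V share by -1.69 to 1.06. Quantile normalization gave MT-ATP8 and MT-ND4L the same value in each group by construction, as they kept their ranks. Length weighting, chosen after seeing the data, gave a protein difference of 1.59 percentage points, beside 5.37 without it (exact permutation test, p = 0.4 for each). The weighted share is of TPM times length, a different unit, so the sizes of these differences cannot be compared. The groups did not overlap in the shares of MT-ND5, MT-ND6, MT-ATP6 and complex IV or in the ratio of MT-RNR2 to MT-RNR1. Leaving out libraries or taking same-number differences therefore could not change their direction. The other settings were tried for the shares only. There the direction was kept, except for MT-ATP6 relative to the heavy-strand median (0.0064). MT-ATP6 helps to set that median, so that value cannot decide its direction. Same-number libraries did not deviate together (correlations of 0.0652, 0.0814 and -0.0383). Without the correlations of different-number libraries beside them, these values cannot exclude a pairing. With the replicate number as a replicate block 0 MT- genes passed, and the exact sign-flip permutation test of the MT- total gave p = 0.5 for a difference of 5.37. The cause of these changes was not tested. The tRNA shares, being 0, gave no value under any alternative. With depth unknown, what depth limits cannot be stated.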
